A study of Mus musculus with 12 samples.

Results

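The genes described here are 39 endothelial identity genes, chosen by symbol from the 24421 gene symbols of a count table of mouse lung explants. They cover genes of blood vessel endothelium in general, arterial and lymphatic genes, and transcription factors that set up or hold endothelial fate. All 39 had reads in each of the 12 libraries and all 39 passed the filter on low counts, which kept 15246 genes. Endothelial cells line every vessel, are joined by VE-cadherin and other junction proteins, and keep their identity through ETS, SOX and GATA family transcription factors. In the fetal lung a capillary network surrounds the growing airway tips and exchanges signals with them. In an explant this network has no connection to the heart and carries no blood flow.

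The libraries are bulk RNA of whole lungs taken from wild-type CD-1 embryos at embryonic day 12.5 and grown in Matrigel at an air-liquid interface. In the compression group (4 libraries, Day 2) a 20% solution of PEG-HCC, a light-sensitive polymer, was crosslinked by a two-photon laser to enclose the lung for 2 days. In the control group (4 libraries, Day 2) the same solution was added and left uncrosslinked. The Day 0 group (4 libraries) was taken when the other lungs entered the polymer, so that time in culture and contact with the solution cannot be told apart in comparisons with Day 0, nor can restriction and crosslinking in the comparison of the Day 2 groups. Nothing in the labels ties each library to its own animal, so p-values measure the spread between these samples, which may be technical. The series title names VEGF, the main vascular growth factor, and congenital diaphragmatic hernia.

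Total counts ran from 25680019 to 31739019 per library under compression, from 15452117 to 30805341 in controls and from 13979871 to 33249761 at Day 0. Levels are CPM (counts scaled to a common library total) with library sizes scaled by TMM, a factor that centres the bulk of genes, and group values are mean ± SD (n = 4 each). The smallest count behind any member's value was 9, for Nos3. The lung marker Nkx2-1 stood at 213 to 264 CPM under compression, 234 to 246 CPM in controls and 158 to 196 CPM at Day 0. Control replicate 4 held liver transcripts. Its summed level over 11 liver markers was 1661 CPM, against at most 17.97 CPM in any other library. Compression replicates 2 and 3 carry 1 shared number in their descriptions, with the letters A and B, and whether they came from 1 lung is not known.

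Start-site sequences show where members share letters that ETS factors such as Erg, Fli1 and Ets1 are known to bind. RefSeq promoters of GRCm38.p6 (250 bases before to 50 after a start site) were at hand for 19 members, 26 promoters in all. The motif CNGGAAG, on either strand, occurred in 16 of the 26 (61.5%), against 31.9% of all 32851 promoters of the same length. The SOX letters ACAANG occurred in 38.5% of member promoters and 41.2% of all promoters, and the GATA letters AGATAA in 11.5% and 11.2%. The promoters printed below are examples. Among those not printed, the promoters of Calcrl, Stab1 and Prox1 hold the ETS letters and belong to genes that did not pass the test. The first 3 promoters below hold the ETS letters, in capitals, and belong to genes that fell over the 2 days. The last 2 hold no match to CNGGAAG and belong to a gene that fell and to one that did not pass the test. The last, of Eng, does hold the inner letters GGAA on both strands, without the flanking letters that the motif asks for. Each reads 5′ to 3′ on the strand of its gene.
Egfl7 (chr2:26583615-26583914, plus strand): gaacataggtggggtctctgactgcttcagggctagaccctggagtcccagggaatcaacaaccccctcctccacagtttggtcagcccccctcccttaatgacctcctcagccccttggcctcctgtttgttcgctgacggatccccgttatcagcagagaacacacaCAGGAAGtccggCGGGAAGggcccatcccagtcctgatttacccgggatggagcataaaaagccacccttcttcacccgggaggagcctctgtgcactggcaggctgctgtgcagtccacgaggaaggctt
Robo4 (chr9:37401722-37402021, plus strand): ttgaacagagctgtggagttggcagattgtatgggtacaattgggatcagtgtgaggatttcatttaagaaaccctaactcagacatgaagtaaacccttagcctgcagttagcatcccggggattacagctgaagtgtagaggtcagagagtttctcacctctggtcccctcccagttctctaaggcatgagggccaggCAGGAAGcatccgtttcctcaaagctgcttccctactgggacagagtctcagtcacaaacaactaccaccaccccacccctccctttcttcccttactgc
Clec14a (chr12:58269209-58269508, minus strand): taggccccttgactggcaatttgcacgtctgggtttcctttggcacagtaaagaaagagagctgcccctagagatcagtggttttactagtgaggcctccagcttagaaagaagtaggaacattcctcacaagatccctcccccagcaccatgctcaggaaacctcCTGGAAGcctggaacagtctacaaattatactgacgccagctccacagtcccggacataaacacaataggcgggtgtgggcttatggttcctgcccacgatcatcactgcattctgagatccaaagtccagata
Cldn5 (chr16:18776597-18776896, plus strand): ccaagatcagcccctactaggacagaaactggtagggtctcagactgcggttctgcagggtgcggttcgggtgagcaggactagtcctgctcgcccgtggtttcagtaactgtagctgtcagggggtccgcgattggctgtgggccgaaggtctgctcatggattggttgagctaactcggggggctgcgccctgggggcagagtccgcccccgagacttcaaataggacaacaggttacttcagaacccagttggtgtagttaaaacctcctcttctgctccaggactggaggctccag
Eng (chr2:32646345-32646644, plus strand): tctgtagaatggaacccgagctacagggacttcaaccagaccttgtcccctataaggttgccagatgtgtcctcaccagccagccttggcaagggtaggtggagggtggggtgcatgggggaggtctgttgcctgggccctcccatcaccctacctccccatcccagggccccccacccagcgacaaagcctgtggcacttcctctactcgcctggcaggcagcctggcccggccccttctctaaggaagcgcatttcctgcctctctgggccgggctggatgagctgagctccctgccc
The matches began 81 and 69 bases before the start site in Egfl7, 50 bases before it in Robo4 and 84 bases before it in Clec14a. The Egfl7 promoter is 1 of 3 listed for that gene. Of the 14 members with the ETS letters in at least 1 promoter, 11 fell in controls relative to Day 0 and 3, Calcrl, Stab1 and Prox1, did not pass. Of the 5 without them 3 fell and 2, Eng and Gja5, did not pass. Among all 39 members 84.6% fell in controls, against 17.6% of all genes tested. A link between the letters and the falls was not tested. A match describes letters in this window and does not show that a factor bound there. Nor does the lack of a match show that no ETS factor could bind.

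Most endothelial identity genes fell over the 2 days of culture, whether or not the lung was enclosed. Relative to Day 0, 32 of the 39 members fell under compression (82.1%) and 33 fell in controls (84.6%), by edgeR's quasi-likelihood test at an adjusted p of 0.05, and none rose. Among all 15246 genes tested, 22.5% fell and 26.6% rose under compression, and 17.6% fell and 22.6% rose in controls. The median log2 fold change of the members was -1.64 under compression and -2.04 in controls, against 0.017 and 0.020 over all genes tested. Falls of at least 2-fold were called for 29 members under compression and 32 in controls, against 2.62% and 2.5% of all genes. All compression libraries lay below all Day 0 libraries for 30 members and all control libraries did for 32, against 19.5% and 17.4% of all genes. Without control replicate 4, the library with liver transcripts, 34 members fell in controls, with a median of -2.21. With compression replicates 2 and 3 summed, 32 fell under compression. Both comparisons use the same Day 0 libraries and are not independent of each other. Levels in bulk RNA are shares of a library. Fewer endothelial cells, less RNA per endothelial cell and more RNA from other cells cannot be told apart.

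**Figure D1:**
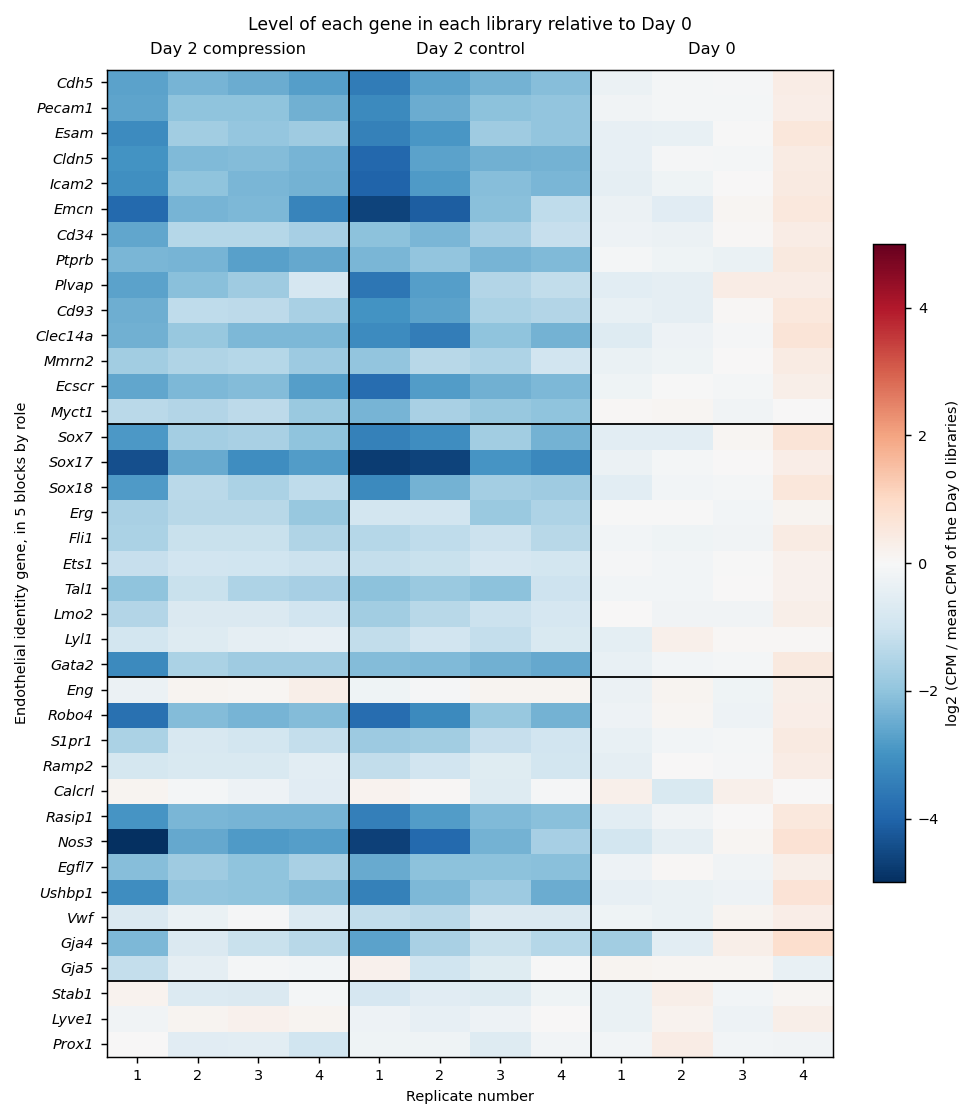
Heat map of the 39 members (down, in blocks by role) in the 12 libraries (across), coloured by log2 of the CPM over the mean CPM of the Day 0 libraries. Blue (lower) fills both Day 2 blocks except for a few rows, among them Eng, Calcrl, Gja5, Stab1, Lyve1 and Prox1.

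All 14 junction and surface genes fell in both Day 2 groups. Cdh5 (chromosome 8, 104101625 to 104144511, plus strand) encodes VE-cadherin, the adherens junction protein of endothelium. Its level was 14.7, 18.9, 16.7 and 13.8 CPM in compression replicates 1 to 4, 8.302, 14.6, 18.5 and 21.6 CPM in control replicates 1 to 4 and 76.9, 87.1, 90.8 and 121 CPM in Day 0 replicates 1 to 4. The highest Day 2 value was far under the lowest Day 0 value. Cdh5 was 5.87-fold lower than at Day 0 under compression (log2 fold change -2.55, SE 0.24, edgeR adjusted p = 4.74e-06) and 6.04-fold lower in controls (-2.596, SE 0.24, adjusted p = 6.41e-06). Pecam1, another adhesion protein of the endothelial junction, kept 21.1% of its Day 0 mean CPM under compression and 19.6% in controls. The tight junction gene Cldn5 kept 19.2% and 15.2%, and the immunoglobulin family adhesion genes Esam and Icam2 kept 24.03% and 19.1% under compression and 19.3% and 15.96% in controls.

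Cd93 and Clec14a encode related C-type lectin family receptors, and Mmrn2 encodes a matrix protein that binds both. Cd93 (chromosome 2, 148436640 to 148443563, minus strand), the surface gene with the highest CPM, stood at 23.5, 51.9, 50.7 and 40.8 CPM in compression replicates 1 to 4, 15.8, 19.7, 42 and 45.9 CPM in control replicates 1 to 4 and 98.8, 93.3, 131 and 184 CPM in Day 0 replicates 1 to 4. The groups at Day 2 stayed below all Day 0 libraries, with the lowest Day 2 values in replicate 1 of each group and in control replicate 2. Its log2 fold changes were -1.604 (SE 0.38, adjusted p = 0.00457) under compression and -2.05 (SE 0.39, adjusted p = 0.00148) in controls. Those of Clec14a were -2.19 and -2.66, and those of Mmrn2 -1.61 and -1.44.

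Ptprb (chromosome 10, 116275523 to 116389535, plus strand) encodes VE-PTP, a phosphatase that acts on the receptor Tie2 and on VE-cadherin. It stood at 2.89, 2.87, 2.16 and 2.396 CPM in compression replicates 1 to 4, 2.896, 3.57, 2.82 and 3.06 CPM in control replicates 1 to 4 and 13.1, 12.2, 11.3 and 20.04 CPM in Day 0 replicates 1 to 4. The 8 libraries at Day 2 were close to each other and apart from Day 0, and Ptprb was 5.52-fold lower under compression (SE of log2 0.19, adjusted p = 5.88e-07) and 4.61-fold lower in controls (SE 0.19, adjusted p = 1.84e-06). Ecscr (chromosome 18, 35713086 to 35722356, minus strand), a surface protein gene of endothelium, had 2.05, 2.59, 2.77 and 1.81 CPM in compression replicates 1 to 4, 0.869, 1.78, 2.31 and 2.62 CPM in control replicates 1 to 4 and 10.5, 12.03, 11.6 and 15.2 CPM in Day 0 replicates 1 to 4, with log2 fold changes of -2.42 (adjusted p = 7.62e-06) and -2.73 (adjusted p = 5.33e-06). Myct1 (chromosome 10, 5593775 to 5606904, plus strand), a membrane protein gene of endothelium, had 2.66, 2.48, 2.74 and 1.88 CPM in compression replicates 1 to 4, 1.38, 2.23, 1.84 and 1.72 CPM in control replicates 1 to 4 and 7.14, 7.26, 6.098 and 6.95 CPM in Day 0 replicates 1 to 4. Its Day 0 values varied little (SD 0.526 CPM), and it fell by 2.81-fold under compression (adjusted p = 1.56e-05) and 3.81-fold in controls (adjusted p = 3.70e-06). Among the remaining surface genes, Emcn, which encodes the sialomucin endomucin, had log2 fold changes of -2.78 and -2.52 with the widest errors of the group (SE 0.60 and 0.60). Cd34, a sialomucin shared with blood progenitors and some stromal cells, had -1.71 and -1.74, and Plvap, which forms the diaphragms of endothelial pores, -1.69 and -2.04.

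**Figure D2:**
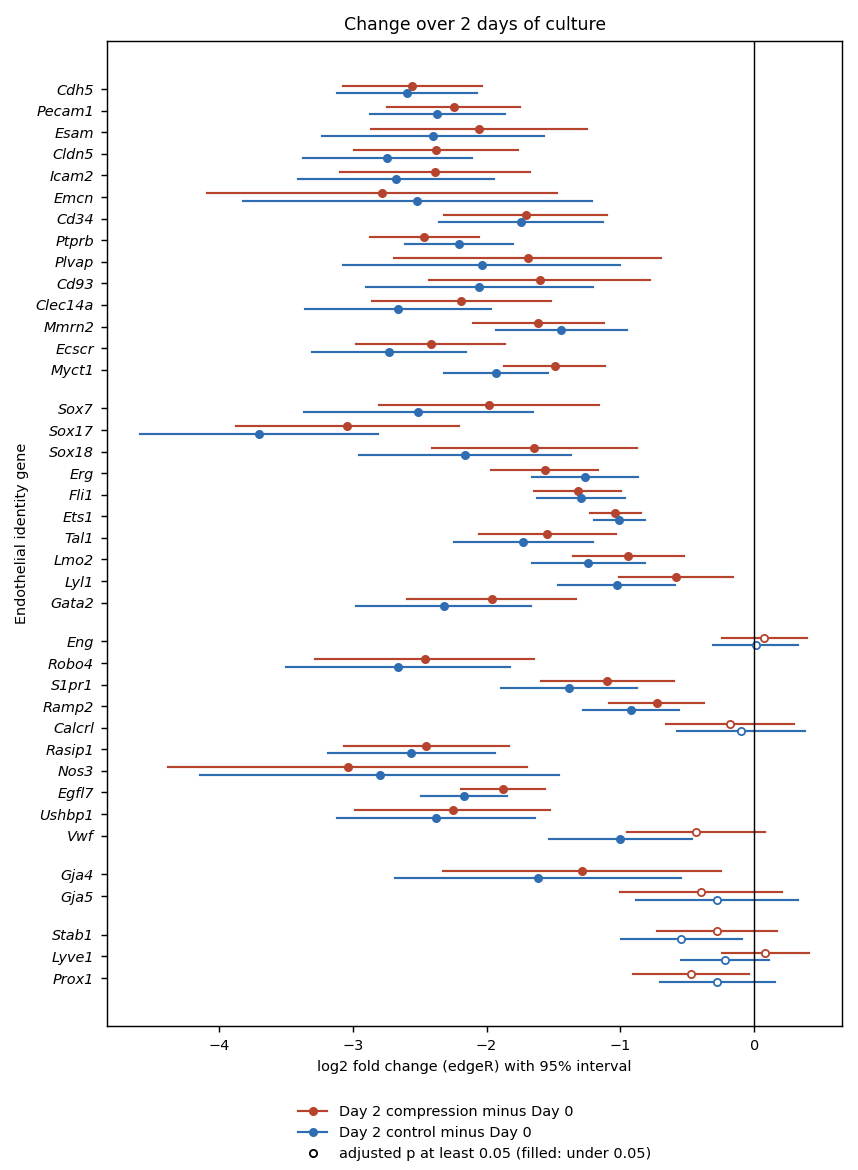
Log2 fold changes (x axis, with 95% intervals) of the 39 members (y axis, by role) for Day 2 compression minus Day 0 and Day 2 control minus Day 0. Filled points have an adjusted p under 0.05, and the open points near 0 are mostly Eng, Calcrl, Gja5 and the lymphatic and sinusoidal genes.

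The 10 transcription factor genes all fell in both Day 2 groups, by unequal amounts. The SoxF genes Sox17, Sox7 and Sox18, which act in arterial and lymphatic fate and vessel growth, fell more than the ETS genes Erg, Fli1 and Ets1 by their fitted values, a difference that was not tested. Sox17 kept 12.1% of its Day 0 mean CPM under compression (log2 fold change -3.04, 95% interval -3.88 to -2.21) and 7.89% in controls (-3.702, -4.59 to -2.82), the lowest share of any member in controls. Sox7 kept 25.4% and 17.7%, and Sox18 32.01% and 22.7%. The ETS genes Erg, Fli1 and Ets1 kept 33.8%, 40.2% and 48.7% under compression and 41.4%, 40.8% and 49.7% in controls. Under compression Sox18 (log2 -1.64, SE 0.35) and Erg (-1.57, SE 0.19) were close to each other.

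Ets1 (chromosome 9, 32636221 to 32757820, plus strand), an ETS gene that lymphocytes and mesenchyme also express, had 80.4, 90.8, 89.8 and 83.5 CPM in compression replicates 1 to 4, 78.1, 82.5, 98.1 and 93.5 CPM in control replicates 1 to 4 and 168, 159, 176 and 205 CPM in Day 0 replicates 1 to 4. No Day 2 library came near Day 0, and the fold changes were the most precise of the list (log2 -1.04, SE 0.0889, adjusted p = 1.31e-06 under compression, and -1.01, SE 0.08903, adjusted p = 2.36e-06 in controls). Erg (chromosome 16, 95359169 to 95586593, minus strand), an ETS factor gene of endothelium, had 7.91, 9.27, 9.32 and 6.54 CPM in compression replicates 1 to 4, 12.8, 12.6, 6.76 and 8.301 CPM in control replicates 1 to 4 and 24.2, 24.1, 22.3 and 27.2 CPM in Day 0 replicates 1 to 4. Control replicates 1 and 2 were the highest Day 2 libraries for Erg, while replicate 1 was the lowest control for most members. Erg was 2.96-fold lower than Day 0 under compression (adjusted p = 1.67e-05) and 2.41-fold lower in controls (adjusted p = 1.22e-04).

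Tal1, Lyl1 and Lmo2 form complexes with GATA factors in blood and endothelial progenitors, and Gata2 is one of these factors. Lmo2 (chromosome 2, 103957986 to 103981878, plus strand) had 11.1, 18.2, 18.4 and 15.5 CPM in compression replicates 1 to 4, 8.98, 11.7, 14.2 and 16.98 CPM in control replicates 1 to 4 and 30.5, 26.6, 27.01 and 37.05 CPM in Day 0 replicates 1 to 4, and fell by 1.92-fold under compression (adjusted p = 0.00133) and 2.36-fold in controls (adjusted p = 2.70e-04). Lyl1 (chromosome 8, 84701457 to 84704715, plus strand) had 1.83, 2.24, 2.5 and 2.59 CPM in compression replicates 1 to 4, 1.48, 1.78, 1.495 and 2.04 CPM in control replicates 1 to 4 and 2.48, 4.13, 3.62 and 3.59 CPM in Day 0 replicates 1 to 4. Compression libraries overlapped Day 0 replicate 1 for Lyl1, and its fold changes were -0.59 (SE 0.20, adjusted p = 0.0247) under compression and -1.03 (SE 0.20, adjusted p = 0.00124) in controls. The call under compression was lost without Day 0 replicate 2 (adjusted p = 0.0698), compression replicate 1 (0.0538) or compression replicate 2 (0.0525). Tal1 had log2 fold changes of -1.55 and -1.72, and Gata2 of -1.96 and -2.32, at mean levels of 0.973 CPM under compression, 0.753 CPM in controls and 3.8 CPM at Day 0.

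Of the 10 receptor and signalling genes, 7 fell under compression and 8 in controls. Egfl7 (chromosome 2, 26580014 to 26593120, plus strand), a secreted factor of endothelium whose promoter is printed above, had 14.03, 17.8, 15.2 and 20.2 CPM in compression replicates 1 to 4, 10.7, 14.9, 15.1 and 14.6 CPM in control replicates 1 to 4 and 52.5, 64.98, 54.9 and 75.2 CPM in Day 0 replicates 1 to 4. It had the smallest p of the members in controls, at 4.497-fold lower than Day 0 (log2 -2.17, SE 0.15, adjusted p = 3.38e-07), and was 3.67-fold lower under compression (-1.88, SE 0.15, adjusted p = 7.15e-07). The endothelial nitric oxide synthase gene Nos3 kept 12.1% of its Day 0 mean CPM under compression and 15.3% in controls. Robo4, a Roundabout family receptor of vessels, kept 18.1% and 15.98%, and Rasip1, a regulator of small GTPases needed for vessel lumens, 18.3% and 17.3%. Ushbp1 kept 21% and 19.3%. The sphingosine-1-phosphate receptor gene S1pr1 had smaller falls, with log2 fold changes of -1.097 and -1.38. Counts of Nos3, Rasip1 and Sox17 may hold reads of other genes, since 32.3%, 22.5% and 16.8% of their exon bases overlap a gene on the opposite strand and the strand setting of the counts is not known. Rasip1 also shares 20.4% of its exon bases with Izumo1 on its own strand.

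Eng (chromosome 2, 32646595 to 32682669, plus strand) encodes endoglin, a co-receptor for BMP and TGF-beta ligands that macrophages and mesenchyme can also express. Its level was 31.6, 42.2, 40.9 and 47.2 CPM in compression replicates 1 to 4, 32.7, 36.9, 42.8 and 42.8 CPM in control replicates 1 to 4 and 30.98, 41.8, 33.4 and 47.5 CPM in Day 0 replicates 1 to 4. The 3 groups overlapped fully, and the fold changes were 0.074 under compression (95% interval -0.24 to 0.39, adjusted p = 0.703) and 0.011 in controls (-0.31 to 0.33, adjusted p = 0.962). These intervals lie apart from those of Cdh5, which were -3.08 to -2.03 and -3.12 to -2.07. The sign of the Eng value in controls turned under DESeq2 size factors (-0.0093), and its size is near 0 in either case. Calcrl and Ramp2 encode the partners of the adrenomedullin receptor. Calcrl (chromosome 2, 84330626 to 84425411, minus strand) had 12.5, 10.7, 9.63 and 7.67 CPM in compression replicates 1 to 4, 12.8, 11.8, 7.37 and 10.9 CPM in control replicates 1 to 4 and 13.6, 6.76, 13.7 and 11.6 CPM in Day 0 replicates 1 to 4, again with all groups overlapping (log2 -0.18, adjusted p = 0.514, and -0.10, adjusted p = 0.752). Ramp2 fell in both groups, with log2 fold changes of -0.73 (adjusted p = 0.00246) and -0.92 (adjusted p = 6.64e-04). A neighbouring gene model on the same strand, Vps25, shares 33.4% of the exon bases of Ramp2.

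Vwf (chromosome 6, 125546774 to 125686679, plus strand), the clotting factor carrier that endothelium and megakaryocytes make, had 1.14, 1.504, 1.82 and 1.198 CPM in compression replicates 1 to 4, 0.804, 0.755, 1.16 and 1.15 CPM in control replicates 1 to 4 and 1.63, 1.49, 2.11 and 2.37 CPM in Day 0 replicates 1 to 4. Control libraries lay below Day 0 (log2 -1.001, SE 0.25, adjusted p = 0.005799), while compression libraries overlapped it (-0.43, SE 0.24, adjusted p = 0.149). The difference between these 2 changes is the comparison of the Day 2 groups below, which was not called for Vwf.

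The connexins of arterial endothelium, Gja4 and Gja5, form gap junctions. Gja4 (chromosome 4, 127311421 to 127314039, minus strand) had 1.33, 3.78, 2.91 and 2.43 CPM in compression replicates 1 to 4, 0.998, 2.06, 2.96 and 2.36 CPM in control replicates 1 to 4 and 1.88, 4.34, 7.84 and 11.2 CPM in Day 0 replicates 1 to 4. Day 0 replicate 1 lay inside the range of the Day 2 libraries, and Day 0 replicates 3 and 4 lay far above them. Gja4 fell in both groups (log2 -1.29, SE 0.48, adjusted p = 0.0408, and -1.62, SE 0.49, adjusted p = 0.0193), but the calls depended on single libraries and on the settings. Without Day 0 replicate 4 the adjusted p was 0.144 under compression and 0.0645 in controls. Under compression it was also lost without Day 0 replicate 3 (0.0818) and without compression replicates 1 (0.0891), 3 (0.0651) or 4 (0.0815), and in controls without control replicate 1 (0.0525). With no filter on low counts the adjusted p under compression was 0.0644, and with only the 8 libraries compared it was 0.0568. Gja5 (chromosome 3, 96904693 to 97077416, plus strand) had 1.83, 3.08, 3.95 and 3.85 CPM in compression replicates 1 to 4, 4.89, 2.09, 2.79 and 4.15 CPM in control replicates 1 to 4 and 4.62, 4.48, 4.54 and 3.23 CPM in Day 0 replicates 1 to 4, with no call (log2 -0.40, adjusted p = 0.258, and -0.28, adjusted p = 0.463).

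None of the 3 lymphatic and sinusoidal genes passed with edgeR in either Day 2 group, while DESeq2 called Stab1 lower in controls (adjusted p = 0.0205). Stab1 (chromosome 14, 31139013 to 31168641, minus strand) encodes a scavenger receptor of sinusoidal endothelium and macrophages. It had 103, 56.6, 54.7 and 83.9 CPM in compression replicates 1 to 4, 51.3, 60.8, 57.6 and 79.2 CPM in control replicates 1 to 4 and 72.6, 111, 82.6 and 96.9 CPM in Day 0 replicates 1 to 4. Compression replicates 1 and 4 overlapped Day 0 and replicates 2 and 3 did not (log2 -0.28, adjusted p = 0.282). In controls the value was -0.55 (95% interval -0.998 to -0.095, adjusted p = 0.0527), which passed under 6 of 14 alternatives. These were DESeq2, DESeq2 size factors in edgeR (0.0464), only the 8 libraries compared (0.0183), compression replicates 2 and 3 summed (0.0394), without control replicate 4 (0.0234) and without Day 0 replicate 1 (0.0321). Lyve1 (chromosome 7, 110850607 to 110863239, minus strand), a hyaluronan receptor of lymphatic endothelium and of some macrophages, had 8.82, 10.9, 11.6 and 10.9 CPM in compression replicates 1 to 4, 8.302, 7.58, 8.43 and 10.02 CPM in control replicates 1 to 4 and 7.87, 11.3, 8.39 and 12.3 CPM in Day 0 replicates 1 to 4. Its groups overlapped, with values of 0.083 (95% interval -0.24 to 0.41, adjusted p = 0.676) and -0.22 (-0.55 to 0.11, adjusted p = 0.273). Prox1 (chromosome 1, 190118035 to 190170714, minus strand), the transcription factor that sets lymphatic fate and is also made in fetal liver, had 8.899, 5.91, 6.11 and 4.44 CPM in compression replicates 1 to 4, 7.69, 7.62, 5.71 and 8.05 CPM in control replicates 1 to 4 and 8.09, 11.5, 7.98 and 7.73 CPM in Day 0 replicates 1 to 4. It was at -0.47 under compression (adjusted p = 0.0668, and 0.00623 without compression replicate 1) and -0.28 in controls (adjusted p = 0.299). Control replicate 4, the library with liver transcripts, stood at 8.05 CPM for Prox1, inside the range of the Day 0 libraries.

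**Figure D3:**
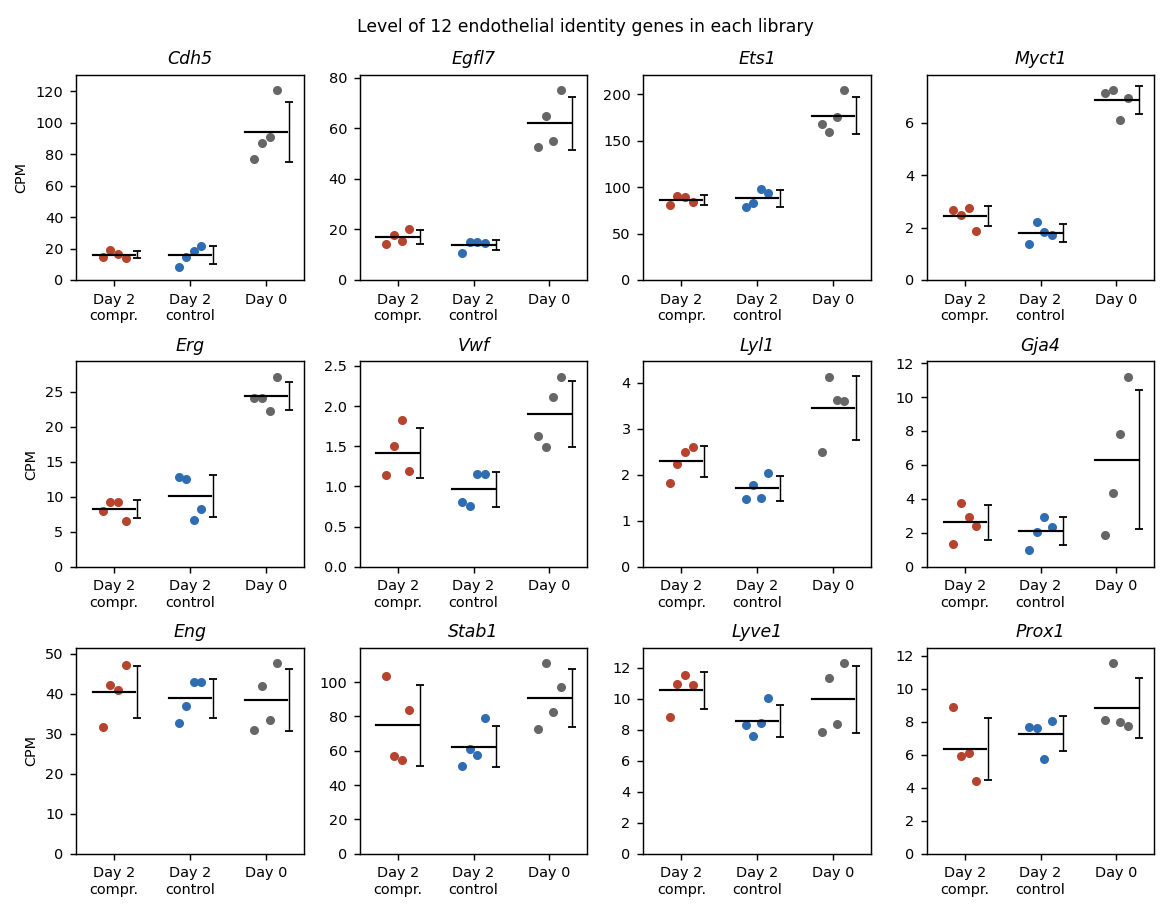
CPM of 12 members in each library (points, 4 per group), with the group mean (line) and SD (bar), on axes that start at 0. Cdh5, Egfl7, Ets1, Myct1 and Erg lie lower in both Day 2 groups than at Day 0, while Eng, Lyve1 and Prox1 overlap across the groups.

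The order of levels among members changed with the falls. Per kilobase of annotated exon, Cldn5, Cdh5 and Ets1 were the highest members at Day 0, with mean levels of 24.9, 22.4 and 20.9 CPM per kilobase, and Eng was number 12 at 9.49. At Day 2 Ets1 (10.2 under compression and 10.4 in controls) and Eng (9.996 and 9.59) were the highest. Cldn5 stood at 4.78 and 3.78 CPM per kilobase and Cdh5 at 3.81 and 3.75. Vwf was the lowest member in every group, at 0.0882 under compression, 0.0601 in controls and 0.118 at Day 0.

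Levels of several marker lists of other cell types also differed between Day 2 and Day 0. Among all genes tested, 22.5% fell and 26.6% rose under compression, and 17.6% fell and 22.6% rose in controls. Of 11 erythroid markers in the table, 4 globin genes (Hba-a1, Hba-a2, Hbb-bs and Hbb-bt) had 0 counts in every library. How reads were counted is not known, so these zeros need not mean absent transcripts. The other 7 were tested, of which 5 fell under compression and 4 in controls. The summed level of the erythroid markers was 116 to 214 CPM under compression, 114 to 197 CPM in controls and 1077 to 2245 CPM at Day 0. Of 6 mural cell markers tested, which mark the pericytes and smooth muscle around vessels, 3 fell in each Day 2 group, with summed levels of 259.6 to 346, 272 to 331 and 392 to 599 CPM. Of the 17 macrophage and leukocyte markers, all detected, 12 rose under compression and 5 in controls, and none fell. In controls 13 of them had positive fold changes and 4 had negative ones. Their summed level was 459 to 534 CPM under compression, 324 to 503 CPM in controls and 277 to 335 CPM at Day 0. These cells also express Stab1, Lyve1, Cd93 and Eng. Of 8 megakaryocyte and platelet markers, 3 were tested, with none called under compression and 1, Itga2b, lower in controls. Epithelial markers summed to 2239 to 2841, 2111 to 2221 and 1091 to 1241 CPM (6 of 9 rose and 1 fell in each Day 2 group). A large part of the Day 2 sums was the marker Sftpc. It averaged 1017 ± 255 CPM under compression, 574 ± 136 CPM in controls and 72.9 ± 23.0 CPM at Day 0. Of 6 mesothelial markers 3 rose under compression and 4 in controls, of 10 mesenchymal markers 3 rose and 2 fell under compression and 1 rose and 4 fell in controls, and of 5 cardiac markers tested edgeR called 0 in either group (0 at an unadjusted p under 0.05 under compression and 1 in controls, with 0 and 0 called by DESeq2). The part of these shifts in the levels of the members was not tested.

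The comparison of the Day 2 groups asks what the crosslinked enclosure changed. No member passed the test with edgeR (lowest adjusted p = 0.385, Myct1) or with DESeq2 (lowest 0.407), and edgeR called 0% of all genes. DESeq2 called 50 of all genes higher and 19 lower. At an unadjusted p under 0.05 there were 3 members (7.69%), all with positive values, against 12.1% of all genes in either direction and 6.73% with positive values. The log2 fold changes of the members had a median of 0.27 and ran from -0.30 to 0.66, with 29 positive and 10 negative, and 51% of all genes positive. The tally moved with single libraries, to 24 positive and 15 negative without control replicate 1, 26 and 13 without compression replicate 2, and 33 and 6 without control replicate 4. Without control replicate 1 the median was 0.078, and it was 0.18 without control replicate 2 and 0.15 without compression replicate 2. No member had groups that did not overlap, against 3.07% of all genes that lay higher and 2.7% that lay lower. The 95% intervals stayed within 2-fold in either direction for 25 of 39 members. For 14 the interval reached a 2-fold higher level and for 2, Emcn and Nos3, it also reached a 2-fold lower one.

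The 3 members with an unadjusted p under 0.05 were Myct1, Vwf and Lyl1, each with a higher fitted value under compression. Myct1 averaged 2.44 ± 0.389 CPM under compression and 1.79 ± 0.349 CPM in controls (log2 0.44, SE 0.18, adjusted p = 0.385). Vwf averaged 1.42 ± 0.315 and 0.966 ± 0.216 CPM (0.57, SE 0.25, adjusted p = 0.401), and Lyl1 2.29 ± 0.343 and 1.701 ± 0.268 CPM (0.44, SE 0.20, adjusted p = 0.412). In each of them at least 1 library overlapped the other group. Beside Vwf, which megakaryocytes also make, the platelet factor gene Pf4 had 4.94, 7.73, 7.47 and 6.38 CPM in compression replicates 1 to 4 and 2.19, 2.64, 4.72 and 3.77 CPM in control replicates 1 to 4, with all compression libraries higher (log2 1.001, edgeR adjusted p = 0.252). The 3 megakaryocyte and platelet markers tested had 2 positive values and 1 negative one, edgeR called 0 of them (1 at an unadjusted p under 0.05) and DESeq2 called 1 higher in the list. The summed level of the list was 7.53 to 10.7 CPM under compression and 4.803 to 7.001 CPM in controls. Most of this sum was Pf4 itself (6.63 ± 1.27 and 3.33 ± 1.14 CPM). The other markers tested were close between the groups, Itga2b at 2.09 ± 0.113 and 1.92 ± 0.272 CPM and Gp1bb at 0.38 ± 0.137 and 0.396 ± 0.105 CPM. The part of the list in the Vwf result was not tested. Next by p were Lyve1 at 10.6 ± 1.19 and 8.58 ± 1.03 CPM (0.30, adjusted p = 0.439), Egfl7 at 16.8 ± 2.77 and 13.8 ± 2.11 CPM (0.29, adjusted p = 0.446) and Erg at 8.26 ± 1.32 and 10.1 ± 3.05 CPM (-0.30, adjusted p = 0.512). Beside Lyve1 and Lyl1, which macrophages and other blood cells also express, all 17 macrophage and leukocyte markers had positive fold changes in this comparison (10 at an unadjusted p under 0.05, 0 called by edgeR and 1 by DESeq2), and their part in the result was not tested.

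Cdh5, Ets1 and Eng had fitted differences near 0 between the Day 2 groups. Mean Cdh5 was 16.01 ± 2.27 CPM in compression lungs, against 15.8 ± 5.75 CPM in controls, with a log2 fold change of 0.041 (95% interval -0.48 to 0.56), and Pecam1 13.3 ± 2.71 and 12.4 ± 4.14 CPM. Ets1 had the narrowest interval (-0.030, -0.22 to 0.16), and Eng stood at 0.064 (-0.25 to 0.38). Sox17 had the highest value (1.44 ± 0.6503 against 0.943 ± 0.564 CPM) with an interval of -0.26 to 1.57. A p that misses the threshold does not show that compression left these genes as they were.

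**Figure D4:**
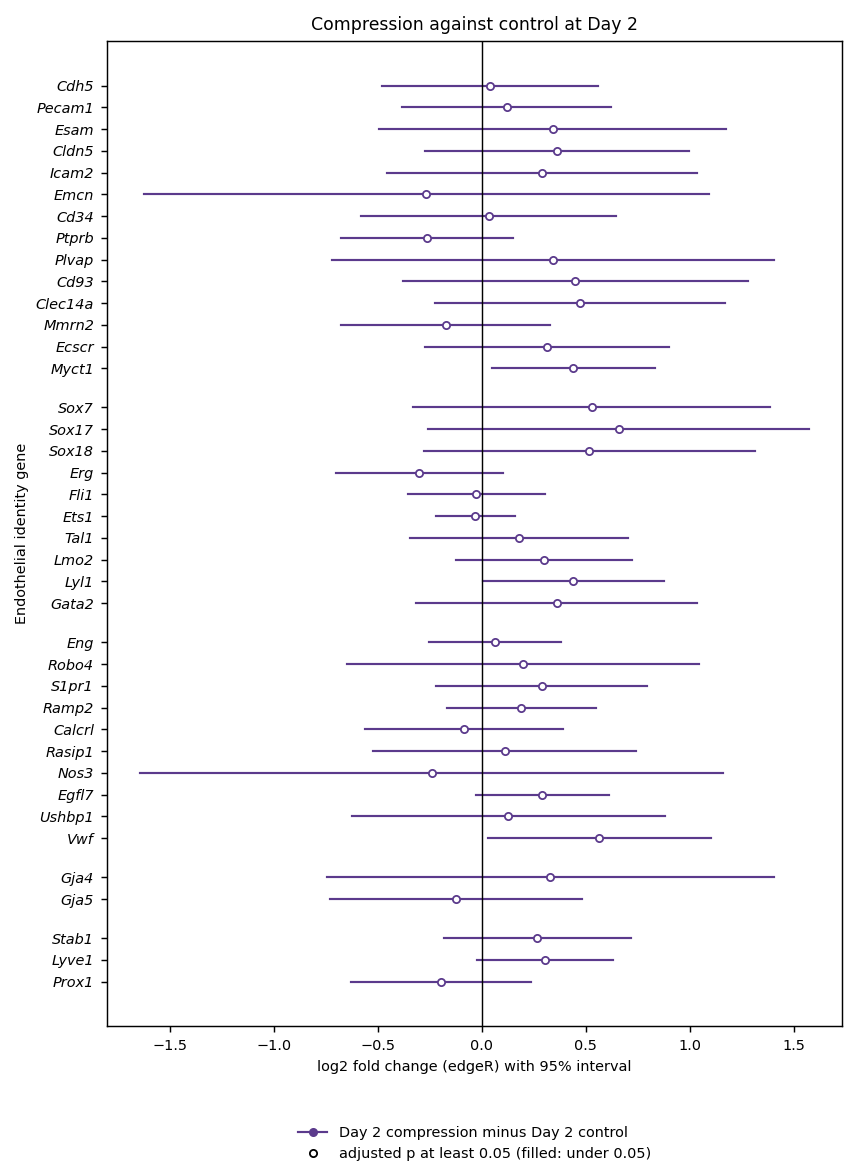
Log2 fold changes of the 39 members (y axis, by role) for Day 2 compression minus Day 2 control (x axis, with 95% intervals). All points are open, since no adjusted p was under 0.05, and 29 lie right of 0, a tally that ran from 24 to 33 under the alternatives.

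Libraries of 1 group differed more in the members than in most genes. The median coefficient of variation of a member's CPM was 22.8% under compression, 36.3% in controls and 23.1% at Day 0, against 9.80%, 9.33% and 10.9% over all genes tested. The members and all genes were not matched for level, and the part of low counts in this gap was not tested. The deviations ran together across members. Compression replicate 1 was the lowest of its group for 30 of 39 members, control replicate 1 for 29 and Day 0 replicate 1 for 26, while Day 0 replicate 4 was the highest of its group for 32. The mean log2 CPM over the members was 2.11 in compression replicate 1 and 2.61 to 2.79 in the other compression libraries. It was 1.85 in control replicate 1 and 2.201 to 2.74 in the other controls, and 3.85 to 4.53 at Day 0. The labels do not say that a replicate number marks a shared litter or day. Compression replicate 1 was the highest of its group for 4 members, Ptprb, which fell, and Stab1, Calcrl and Prox1, which were not called with edgeR. The part of this spread in the comparison of the Day 2 groups was not tested beyond the values given without single libraries.

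Other genes of endothelial signalling, from a separate list of VEGF, angiopoietin, apelin, Notch and related genes, were read from the same fit. Of 42 tested, 27 fell and 2 rose relative to Day 0 under compression, and 30 fell and 1 rose in controls, with median log2 fold changes of -0.85 and -1.201. The shares that fell were 64.3% and 71.4%, against 22.5% and 17.6% of all genes tested. The smallest p-values in both comparisons were those of the angiopoietin receptor gene Tek (-2.89 and -3.08), the ETS gene Elk3 (-0.90 and -0.98), the adaptor gene She (-1.81 and -1.85) and the orphan receptor gene Tie1 (-2.203 and -2.22). Angpt2, a ligand of Tek, rose in both (averages of 24.6 ± 2.01 CPM under compression, 24.9 ± 1.74 CPM in controls and 18.1 ± 3.58 CPM at Day 0), and the phosphatase gene Ptprm rose under compression (0.50). Between the Day 2 groups edgeR called 0 of the 42 and DESeq2 0. With edgeR 2 (4.76%) had an unadjusted p under 0.05, a smaller share than the 12.1% of all genes tested. They were Grap (0.43, adjusted p = 0.377) and Hhex (0.67, adjusted p = 0.377). Next were Tmem100 (0.85, adjusted p = 0.442) and Hey1 (0.33, adjusted p = 0.493). Of these genes 2, Tmem100 and Sema3g, had all compression libraries above all control libraries, against 3.07% of all genes tested. Sema3g, a semaphorin gene, had 3.04, 2.76, 2.87 and 2.75 CPM in compression replicates 1 to 4 and 1.13, 1.92, 2.48 and 2.36 CPM in control replicates 1 to 4 (log2 0.55, adjusted p = 0.525). Tmem100, a BMP-dependent gene of endothelium, had 21.6, 17.6, 19.2 and 14.8 CPM in compression replicates 1 to 4 and 8.27, 10.6, 11.7 and 9.897 CPM in control replicates 1 to 4. Its Day 0 libraries spread over 13.2, 10.5, 38.6 and 51.4 CPM.

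Outside these lists, the 8 genes whose log2 CPM ran closest to the mean of the members over the 12 libraries were Arap3, Pcdh12, C130074G19Rik, N4bp3, Mfng, Dusp2, Pde2a and Thsd1. Their Pearson coefficients with that mean ran from 0.985 to 0.994. The libraries fall into a Day 0 and a Day 2 cluster, so these coefficients mostly carry that shared gap and describe likeness only. Pcdh12, an endothelial protocadherin gene, averaged 7.09 ± 2.13 CPM under compression, 5.59 ± 1.97 CPM in controls and 36.8 ± 13.5 CPM at Day 0.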

How the data were processed

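The values are raw read counts by gene symbol, as the authors deposited them, in 12 columns matched to samples by the descriptions in the labels. The submitters' processing notes name fastp, STAR and mm10, without versions. How reads were counted, and with which annotation and strand setting, is not given in the sources used. The labels' protocols name the RNeasy Micro kit for RNA and KAPA mRNA HyperPrep for libraries.

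Testing used edgeR 4.0.16 in R 4.3.3: filterByExpr (min.count 10, min.total.count 15), TMM, and 1 robust quasi-likelihood fit of all 12 libraries with group as the only term. P-values were adjusted by Benjamini-Hochberg over the 15246 genes tested, threshold 0.05. SEs and 95% intervals come from this fit. Mean log2 CPM uses a prior count of 2. The script was tested on counts simulated with the spread of its own fit, which checks the code and not the results above. Alternatives were DESeq2 1.42.0 and the settings in the closing section. Exons, lengths and coordinates are from GENCODE M21 (GRCm38, the assembly also called mm10), where all 39 symbols matched.

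Values in every library are given for the 2 members with the highest mean CPM per role, the 6 with the smallest p for control against Day 0 and the 6 for compression against control, those not called for control against Day 0, and all connexin, lymphatic and sinusoidal members. The members, lists and rules were chosen with earlier results of these data known. No label pairs same-numbered libraries.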

Additional observations from a re-analysis of the deposited data

Results flagged for a closer look

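Within groups of 4, a library was set apart when the gap from it to its nearest neighbour took more than 0.829 of the range of the group, Dixon's 95% critical value. Of 117 groups examined (39 members in 3 groups), 9 met this, and chance flags about 1 in 20. Day 0 replicate 4 was the library in 4 of them. It stood at 79.9 CPM for Pecam1 (55.6 to 58.7 CPM in the other Day 0 libraries), 37.8 CPM for Fli1 (25.1 to 26.5), 19.4 CPM for Ushbp1 (9.20 to 10.04) and, on the low side, 3.23 CPM for Gja5 (4.48 to 4.62). Day 0 replicate 2 stood at 11.5 CPM for Prox1 (7.73 to 8.09 in the others). Compression replicate 1 was low for Robo4 at 1.90 CPM (5.07 to 5.66) and for Rasip1 at 4.75 CPM (7.16 to 7.41). Control replicate 1 was low for Egfl7 at 10.7 CPM (14.6 to 15.1), and control replicate 4, the library with liver transcripts, was high for Tal1 at 3.89 CPM (1.93 to 2.23).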

How the results depend on the processing

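The counts of members that fell held within 1.5 times under all 14 alternatives per comparison: 31 to 32 under compression and 32 to 34 in controls, both relative to Day 0. None rose, and 0 were called between the Day 2 groups in either direction. The alternatives were DESeq2 size factors, no filter on low counts, DESeq2, the replicate number as a block, only the 8 libraries compared, compression replicates 2 and 3 summed, and each library left out. Median fold changes without single libraries ran from -1.81 to -1.53 under compression and -2.21 to -1.83 in controls relative to Day 0, and from 0.078 to 0.39 between the Day 2 groups. With the replicate number as a block, 32 and 33 members fell and the medians were -1.69, -2.12 and 0.26, and the block moved no count of members. Deviations of same-numbered libraries did not correlate in every pair (r of -0.181 to 0.166), so no pairing was assumed. Replicate 1 did match replicate 1 best in each comparison. Its r was 0.108 for compression against Day 0, 0.112 for control against Day 0 and 0.166 between the Day 2 groups. Of the other numbers only replicate 4 matched its own number best, in control against Day 0 (r of 0.103). Of 1554 gene values under alternatives, 1509 kept sign and side of the threshold, 12 lost a call and 7 gained one, all for Gja4, Lyl1, Stab1 and Prox1. The remaining 26 changed sign. Eng in controls against Day 0 stood at -0.0093 with DESeq2 size factors, -8.34e-05 with no filter, -0.0062 with DESeq2, -4.94e-04 in 8 libraries and -0.0078 with the replicates summed, and between -0.11 and 0.12 without single libraries. Without single libraries, Eng ran from -0.045 to 0.18 under compression against Day 0 and -0.019 to 0.16 between the Day 2 groups, Calcrl from -0.27 to 0.030 in controls against Day 0 and -0.22 to 0.030 between the Day 2 groups, and Lyve1 from -0.044 to 0.19 under compression against Day 0. Between the Day 2 groups Cdh5 ran from -0.18 to 0.22 (-0.011 with the replicates summed), Ets1 from -0.082 to 0.032 and Gja5 from -0.30 to 0.11. Causes were not tested. Depth limits the lowest members, with 9 counts for Nos3 in 1 library.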
